A study of Homo sapiens with 14 samples.

Results

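Homologous recombination and DNA repair genes were followed as a set of 35 genes, chosen by name from 39293 gene identifiers: 6 mediators and partners of homologous recombination, 4 genes of the paralog complexes (RAD51C, RAD51D, XRCC2 and XRCC3), 2 RAD54 motor proteins, 4 nucleases and helicases, 8 subunits of the Fanconi anaemia core complex, 3 genes of the Fanconi ubiquitination step, 2 mismatch repair genes, 4 checkpoint kinases, and PARP1 with the polymerase POLQ. Each symbol matched 1 identifier, and all 35 genes passed the filter on low counts, as did 15756 genes of the table. RNA was measured in MOLM14, a human acute myeloid leukaemia line that carries an internal tandem duplication of FLT3, in 14 stranded poly(A) libraries. Early resistant cells, from 4 flasks kept with FGF2 (FGF2 early) and 4 kept with FLT3 ligand (FL early) at 10 ng/mL, are labelled early gilteritinib resistant lines. Gilteritinib inhibits the FLT3 and AXL kinases. The labels record 100 nM gilteritinib for 48 hours for these 8 libraries and for the acute arm. The acute arm is parental MOLM14, with 1 library each of drug alone, drug with FGF2 and drug with FL (both ligands at 10 ng/mL), so its spread holds the differences between ligands. The 3 parental libraries had neither drug nor ligand. All cultures descend from 1 cell line, and nothing states that the flasks of a ligand or the parental libraries are independent derivations or cultures, so p-values may measure technical spread only.

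Homologous recombination repairs a double-strand break by copying the sister chromatid. Broken ends are cut back to single strands, BRCA2 acts there together with BRCA1, BARD1 and PALB2, and RAD54 proteins drive the search for the matching strand. The Fanconi anaemia pathway unhooks crosslinks between strands: its core complex, with FANCL as the ubiquitin ligase and UBE2T as the conjugating enzyme, tags the pair FANCD2 and FANCI on chromatin. ATR with CHEK1 answers stalled replication forks, and ATM with CHEK2 answers breaks. A sister chromatid exists only after replication. Many of these genes, though not all, are transcribed mainly in cycling cells, around S and G2 phase.

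Total counts per library lay between 25723575 and 33075041. Levels are given as CPM (counts per unit of library size, with TMM factors), in library order, and changes as log2 fold changes ± standard error from edgeR's quasi-likelihood test over all genes, called at an adjusted p under 0.05. All 10 myeloid markers checked were at 1 CPM or more in the early and acute arms and 9 of 10 in the parental arm, and of 14 markers of other lineages, 5 or 6 were at 0 in every library of an arm. The acute libraries stood apart. Ribosomal protein genes took 16.3% to 19.7% of their counts against 10.8% to 13.0% in the others, and mitochondrially encoded genes 3.52% to 3.91% against 4.26% to 5.31%. The 35 repair genes together summed to 909.6 to 995 CPM before TMM scaling in the acute libraries. The sum was 1898 to 2033 in FL early, 2118 to 2177 in FGF2 early and 2133 to 2203 in parental libraries.

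Acute gilteritinib was set against untreated parental cells first. Of the 35 genes, 32 were lower in acute cells, against 30.3% of all genes tested, and 1, ATM, was higher, against 32.3%. MUS81 and PMS2 were not called, although all 3 acute libraries lay below the parental ones for PMS2 (-0.26 ± 0.11, adjusted p = 0.0522). FANCF fell by the smallest called amount (-0.39 ± 0.13, adjusted p = 0.0194) and lost its call without parental replicate 3 (0.0766) or the acute library with drug alone (0.0814), and with upper-quartile scaling (0.0731). At least 2-fold falls with an adjusted p under 0.05 were seen in 27 of the 35, against 14% of all genes. The median log2 change of the set was −1.65, and that of all genes tested was 0.07. In bulk RNA, fewer cells in S and G2 phase and less repair transcript per cell cannot be told apart. A list of 34 replication genes (polymerases, the MCM helicase, the clamp and its loaders) was lower in all 34 members, with a median of −2.83, and its part in the fall of the repair genes was not tested. Marker genes moved with the acute arm too. The 10 myeloid markers summed to 1788 to 2089 CPM in acute and 995 to 1029 in parental libraries. The 14 markers of other lineages summed to 130.2 to 270.4 CPM in acute, 58.1 to 60.3 in parental, 60.4 to 67.4 in FGF2 early and 99.7 to 178 in FL early libraries. Nearly all of that sum was PECAM1, an adhesion molecule that myeloid cells also carry, and the part of these markers in the fall was not tested.

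**Figure D1:**
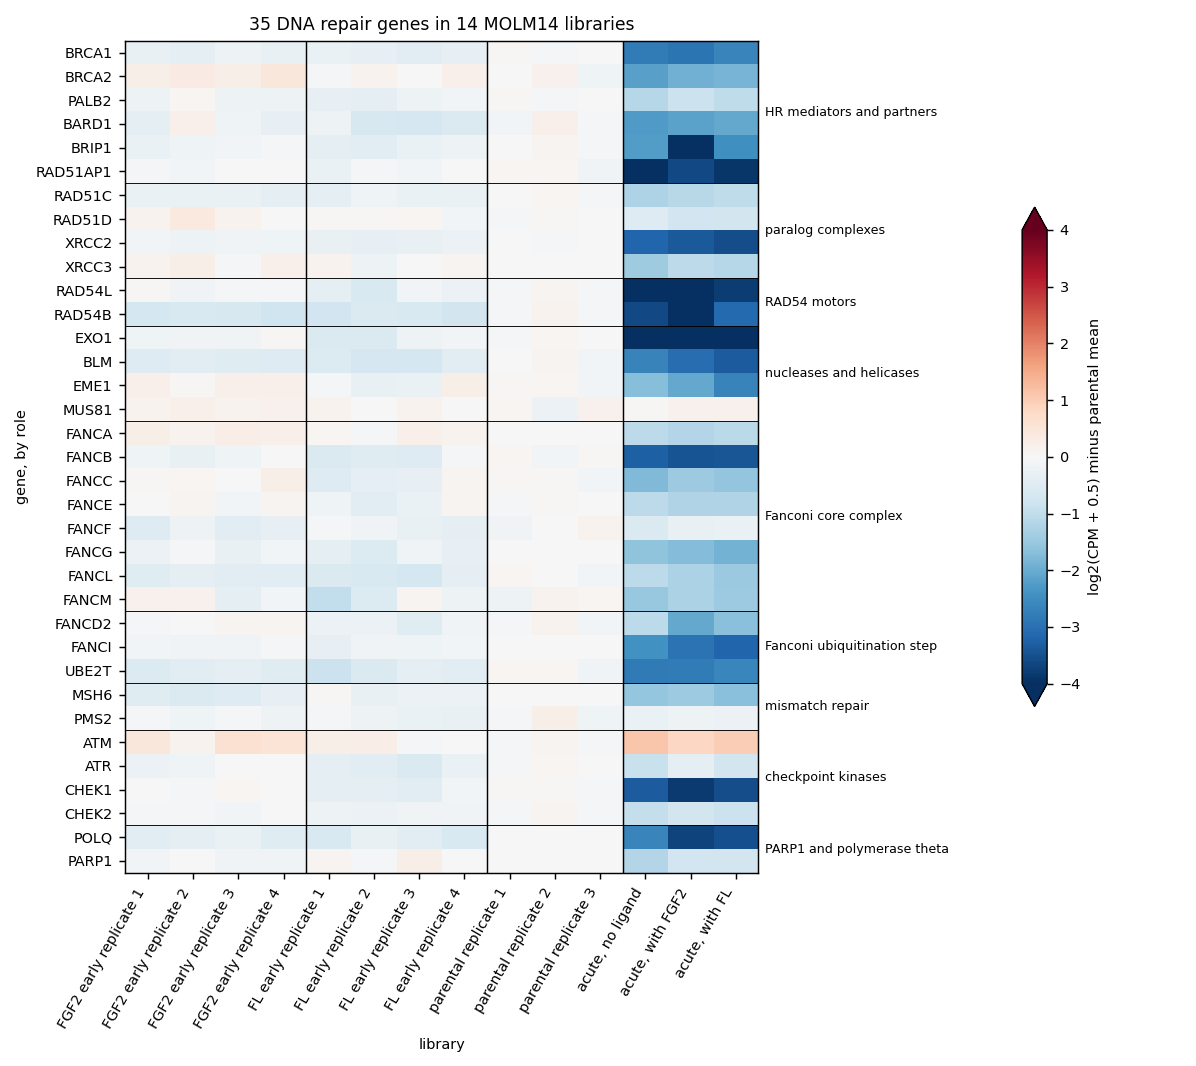
Each cell is the log2(CPM + 0.5) of 1 gene in 1 library minus the mean of the 3 parental libraries, with genes in rows by role and libraries in columns by arm. Colours end at −4 and 4. The 3 acute libraries are the dark columns at the right, while ATM is raised there and MUS81 and PMS2 stay near the parental level.

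The comparison the study names first, early resistant against acutely treated cells, ran the other way. Of the 35 genes, 31 were higher in early cells, against 32.1% of all genes tested, and 1 was lower (ATM), against 33.9%. At least 2-fold rises were called in 24 of the 35, against 12% of all genes. In 30 genes every early library lay above every acute library, against 25.2% of all genes. The median of the set was 1.52, and that of all genes was −0.04. MUS81, FANCF and PMS2 were not called. Both contrasts share the acute libraries, so they are not independent evidence of one another. The counts of 31 and 1 were the same under all 19 alternative settings, including each left-out library. Upper-quartile scaling moved the median of all genes to −0.16 for early against acute and to 0.18 for acute against parental, and the medians of the repair genes moved with it to 1.40 and −1.55. The repair median of acute against parental also depended on the acute library left out. It was −1.85 without drug alone, −1.74 without drug with FGF2 and −1.67 without drug with FL.

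**Figure D2:**
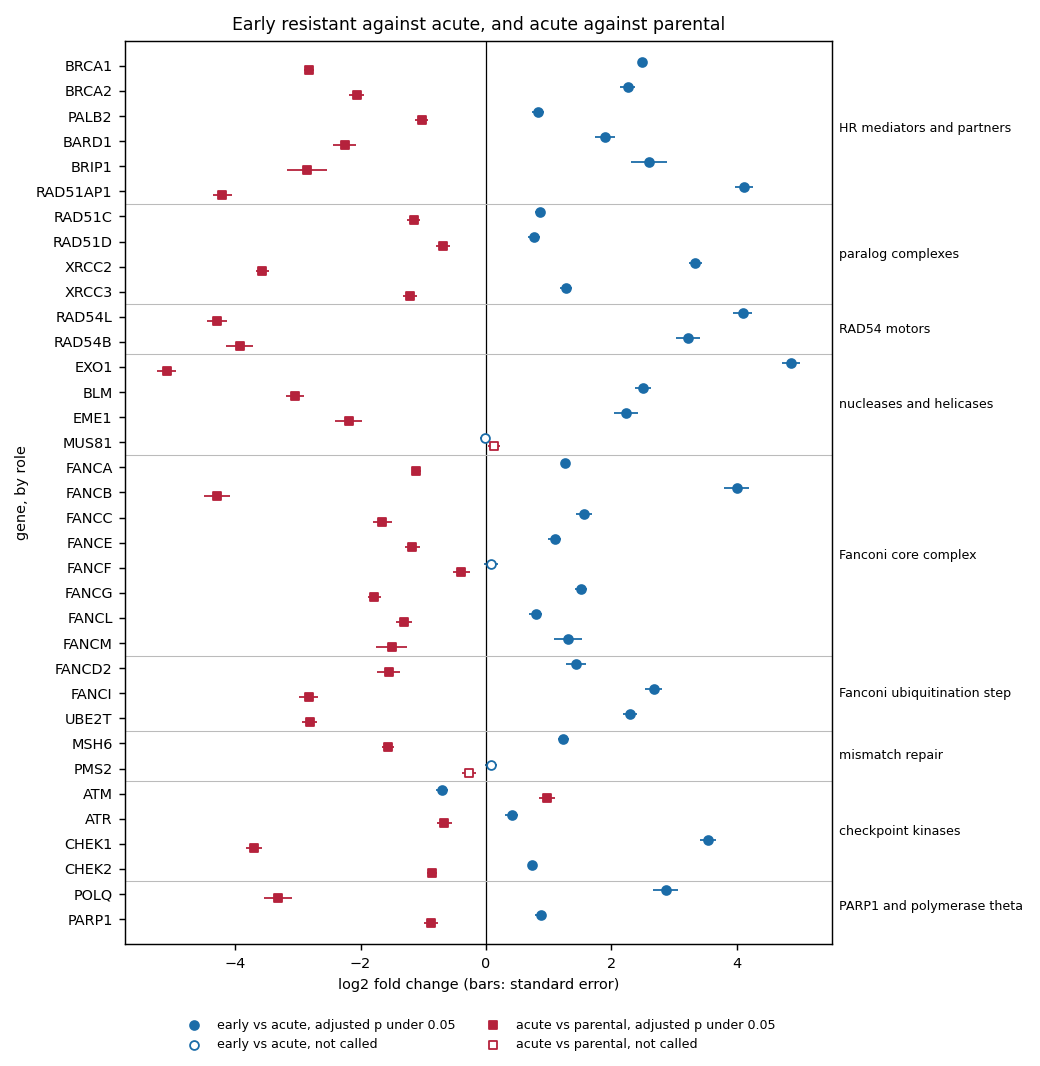
Log2 fold changes (points) and standard errors (bars) of the 35 genes, by role, for early resistant over acute cells (circles) and acute over parental cells (squares). Filled symbols passed an adjusted p of 0.05. EXO1 lies farthest from 0 in both, and ATM is the gene whose 2 symbols are filled on the opposite sides from the rest.

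Among the mediators of homologous recombination, all 6 rose from acute to early cells. RAD51AP1, which helps to pair strands, was at 35.02, 35.5 and 29.98 CPM in parental and 1.41, 2.27 and 1.77 CPM in acute libraries. It was at 31.4, 30.9, 33.7 and 32.9 in FGF2 early and 27.6, 31.3, 31.1 and 34.00 in FL early flasks. No early library came near the acute range, and the log2 change from acute to early was 4.12 ± 0.14 (adjusted p = 1.65e-11). BRIP1, a helicase that binds BRCA1, was at 27.3, 30.1 and 26.4 CPM in parental libraries, 22.9, 24.4, 25.7 and 26.3 in FGF2 early and 21.3, 20.6, 23.1 and 24.1 in FL early flasks. In the acute arm it was at 5.57 CPM with drug alone, 1.31 with FGF2 and 4.70 with FL, the widest relative spread between acute libraries of any of the 35 genes. Its change of 2.61 ± 0.29 carries the largest standard error of the set. BRCA1, the ligase that directs repair of a break to recombination, fell from 105 ± 3.73 CPM (SD, n = 3) in parental to 14.9 ± 1.46 (SD, n = 3) in acute cells and stood at 84.1 ± 3.95 (SD, n = 8) in early cells. BRCA2, a central mediator of recombination, changed by 2.26 from acute to early, BARD1, the obligate partner of BRCA1, by 1.91, and PALB2, which joins BRCA1 to BRCA2, by 0.83.

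The genes of the paralog complexes, which assist strand exchange, all rose, but unequally. XRCC2 was at 30.8, 29.5 and 30.9 CPM in parental and 2.95, 2.54 and 2.16 CPM in acute libraries, with 26.5 to 28.2 in FGF2 early and 24.1 to 25.5 in FL early flasks. Its change was 3.35 ± 0.10 (adjusted p = 5.28e-12). XRCC3 moved by 1.28 ± 0.10, from 21.1, 27.3 and 25.8 CPM in acute libraries to 49.2 to 66.9 in early ones. RAD51C and RAD51D changed by 0.86 and 0.77. The RAD54 motors were among the lowest genes in acute cells: RAD54L was at 2.49, 1.79 and 2.89 CPM there against 43.9, 50.6 and 45.5 in parental libraries, and RAD54B at 1.41, 0.928 and 2.16 against 22.1, 24.8 and 21.3. In early flasks RAD54L stood at 30.5 to 47.9 CPM (4.10 ± 0.15 over acute) and RAD54B at 12.7 to 14.9 (3.22 ± 0.19). RAD54B in early flasks thus lay above every acute library and below every parental library.

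EXO1, the exonuclease that cuts back broken ends, had the largest change of the set. It was at 2.0, 2.20 and 2.19 CPM in acute libraries, 70.2, 75.9 and 71.8 in parental, 63.7, 66.5, 66.2 and 75.5 in FGF2 early and 48.4, 48.96, 63.6 and 66.9 in FL early libraries, a change of 4.87 ± 0.14 (adjusted p = 5.28e-12), or 29.2-fold. BLM, the Bloom syndrome helicase that dissolves joined molecules, changed by 2.50 ± 0.13. EME1 and MUS81 form 1 nuclease that cuts joined DNA, and they parted. EME1 was at 23.5, 24.2 and 21.1 CPM in parental, 6.75, 5.12 and 3.16 in acute and 18.4 to 26.8 in early libraries (2.23 ± 0.19). MUS81 was at 61.6, 49.3 and 66.3 CPM in parental, 60.6, 66.4 and 66.3 in acute and 58.2 to 68.1 in early libraries, ranges that overlap, and its change of -0.02 ± 0.08 had an adjusted p of 0.840.

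In the Fanconi core complex, 7 of 8 genes rose from acute to early cells. FANCB was barely detected in acute libraries, at 0.590, 0.447 and 0.462 CPM, against 10.5, 9.05 and 10.2 in parental, 8.64, 8.003, 8.75 and 9.98 in FGF2 early and 6.43, 6.87, 6.68 and 9.61 in FL early libraries (4.0 ± 0.19, adjusted p = 5.11e-10). FANCC came next, with 7.74, 9.62 and 8.85 CPM in acute, 28.6, 28.4 and 25.4 in parental, 28.6, 29.2, 27.1 and 32.7 in FGF2 early and 18.8, 21.2, 21.5 and 29.5 in FL early libraries (1.57 ± 0.13). The ligase FANCL changed by 0.79, the anchor FANCM by 1.31, and FANCA, FANCE and FANCG by 1.27, 1.10 and 1.52. FANCF, an adaptor of the complex, was at 11.2, 13.6 and 13.97 CPM in acute and 11.7 to 16.3 in early libraries, and its change of 0.08 ± 0.11 was not called (adjusted p = 0.540). Subunits of 1 complex therefore ranged from 0.08 to 4.0.

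The genes of the ubiquitination step rose in all 3 cases. FANCI, a partner of FANCD2 in the clamp that is tagged, was at 168, 167 and 171 CPM in parental and 31.2, 21.5 and 18.4 in acute libraries and at 133 to 163 in early ones (2.68 ± 0.13). UBE2T, the conjugating enzyme, was at 68.8, 69.4 and 59.1 in parental, 8.79, 8.97 and 10.3 in acute and 35.99 to 50.3 in early libraries (2.30 ± 0.11). FANCD2 was at 39.8 CPM with acute drug alone, 19.7 with FGF2 and 26.1 with FL, against 77.6 to 92.4 in parental and 60.1 to 90.9 in early libraries (1.44 ± 0.16). In mismatch repair, MSH6, part of the sensor that reads single mispairs, was at 41.3, 43.99 and 37.5 CPM in acute and 119.7, 123 and 119.8 in parental libraries and rose by 1.24 ± 0.08 from acute to early. PMS2, the nuclease subunit, was at 17.1, 17.8 and 17.5 in acute, 19.9, 24.6 and 18.4 in parental and 16.9 to 20.1 in early libraries, a change of 0.08 ± 0.09 that was not called. PMS2, CHEK2, BRCA1, PARP1 and FANCD2 have pseudogenes or partial copies elsewhere in the genome, so kallisto may have shared their reads with those.

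The checkpoint kinases moved in both directions. CHEK1 was at 53.9, 53.5 and 49.3 CPM in parental, 4.79, 3.23 and 4.004 in acute, 52.1, 49.6, 55.1 and 52.7 in FGF2 early and 40.1, 40.4, 38.9 and 48.5 in FL early libraries (3.55 ± 0.12, adjusted p = 1.87e-11). CHEK2 was at 39.3, 43.7 and 38.04 in parental, 20.8, 23.9 and 21.8 in acute and 34.2 to 39.4 in early libraries (0.74 ± 0.07). ATM was at 91.3, 102 and 92.6 CPM in parental and 207, 168 and 189 CPM in acute libraries, so every acute library was above every other library of the study. It was at 129, 105, 146 and 140.4 in FGF2 early and 112, 115, 90.4 and 94.2 in FL early flasks. The log2 change of ATM was 0.98 ± 0.13 from parental to acute (adjusted p = 1.08e-05) and -0.70 ± 0.10 from acute to early (adjusted p = 2.53e-05). ATR went the other way, with 57.2, 62.3 and 58.7 in parental, 32.04, 44.9 and 35.3 in acute, 50.9, 52.4, 59.5 and 60.01 in FGF2 early and 45.7, 43.00, 39.8 and 49.8 in FL early libraries. Its change of 0.41 ± 0.10 was called (adjusted p = 0.00245) although the acute library with FGF2, at 44.9 CPM, lay within the FL early range. POLQ, the polymerase of end joining guided by microhomology, was at 56.9, 57.1 and 56.6 CPM in parental, 8.72, 3.88 and 4.50 in acute and 37.1 to 47.5 in early libraries (2.87 ± 0.20). PARP1, which marks nicks and breaks, was at 514, 506 and 501, 224, 298 and 305 and 456 to 599 (0.87 ± 0.09).

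**Figure D3:**
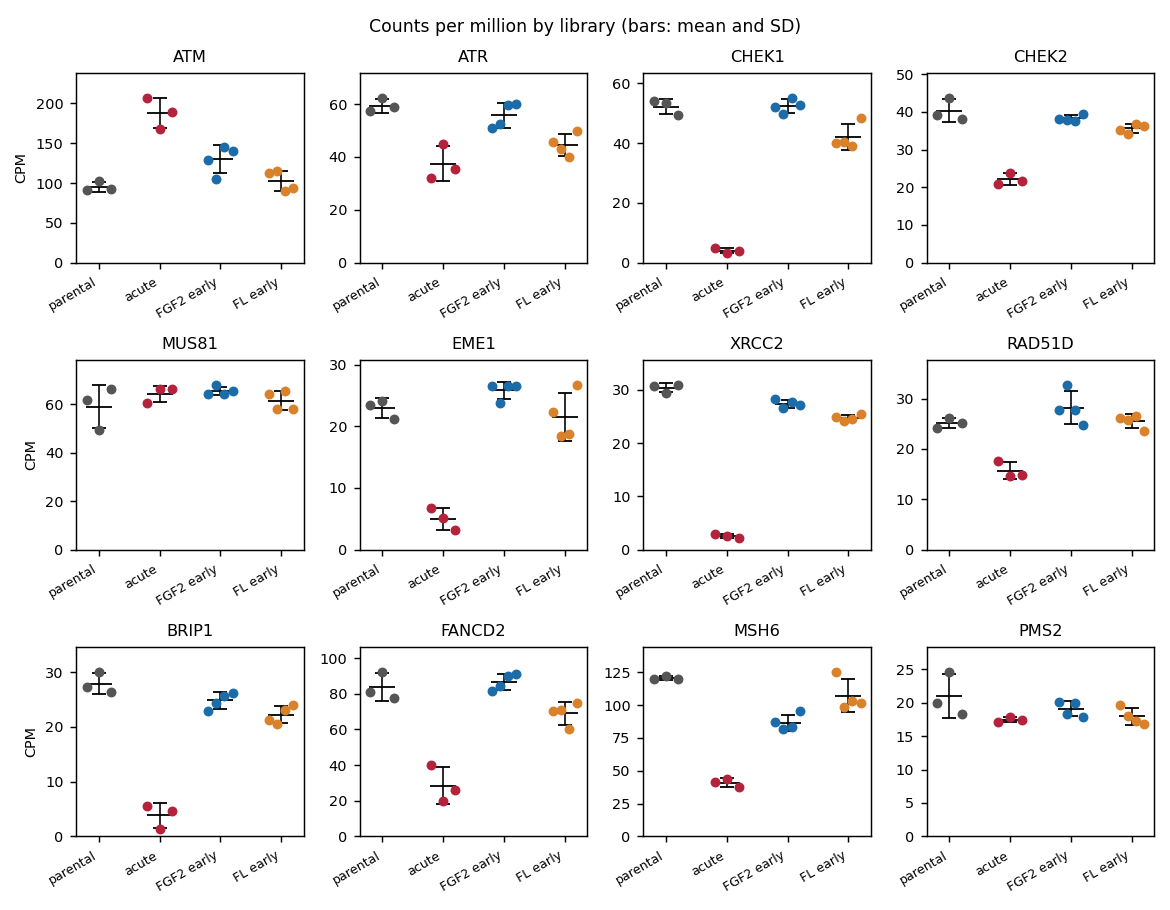
CPM by library for 12 of the 35 genes, with points for libraries and bars for the mean and SD of each arm (3 parental, 3 acute, 4 FGF2 early, 4 FL early), and each vertical axis starting at 0. CHEK1 and XRCC2 sit near the floor in acute cells, and EME1 and BRIP1 lie there below every library of the other arms. MUS81 overlaps across the 4 arms, and ATM is highest in acute cells.

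Ratios of partner genes within a library do not depend on the scaling between libraries, so these were compared next. The 10 pairs were chosen after their values were seen, and no test was run. The count ratio of MUS81 to EME1 was 2.04 to 3.14 in parental, 2.18 to 3.49 in early and 8.97 to 21.0 in acute libraries. The ratio of RAD51D to XRCC2, members of 1 paralog complex, was 0.783 to 0.885 in parental, 0.915 to 1.23 in early and 5.72 to 6.91 in acute libraries. The ratio of CHEK2 to CHEK1 was 0.728 to 0.818, 0.684 to 0.946 and 4.34 to 7.39, and that of ATM to ATR was 1.58 to 1.64, 1.89 to 2.67 and 3.75 to 6.46, in the same order. FANCI to FANCD2 ran the other way, with 1.81 to 2.20 in parental, 1.71 to 2.50 in early and 0.705 to 1.09 in acute libraries. MSH6 to PMS2 also fell, from 4.98 to 6.53 in parental libraries to 2.15 to 2.47 in acute ones, with 4.18 to 6.37 in early ones. BRCA2 to PALB2 fell to 0.343 to 0.402 in acute libraries, from 0.663 to 0.872 in parental ones, and was 0.867 to 1.19 in early ones. RAD54L to RAD54B was 1.34 to 1.93 in acute, 1.99 to 2.14 in parental and 2.05 to 3.54 in early libraries. In these 8 pairs, the acute range overlapped neither the parental nor the early range. Pairs of other genes were not compared, so whether this count is particular to repair partners was not tested. BRCA1 to BARD1, at 2.31 to 2.79 in acute libraries, lay below the parental 3.19 to 4.27 and overlapped the early 2.50 to 4.78. XRCC3 to RAD51C overlapped throughout and was 2.25 to 2.47 in parental, 2.08 to 2.51 in acute and 2.28 to 3.57 in early libraries. The ATM to ATR and the RAD51D to XRCC2 ratios were higher in every early library than in any parental library. So was BRCA2 to PALB2, except that 1 FL early flask reached 0.867, under the highest parental value of 0.872. RAD54L to RAD54B and XRCC3 to RAD51C were higher too, except in FL early replicate 2 (2.05 and 2.28, under the highest parental values of 2.14 and 2.47).

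Levels of different genes can be compared only per length, here as CPM per kilobase of the longest principal transcript in GENCODE 29. In parental cells PARP1 led with 128.1 ± 1.56 (SD, n = 3), followed by UBE2T with 72.4 ± 6.35 and FANCI with 35.8 ± 0.43. At the low end were BRCA2 with 2.23 ± 0.27 and FANCM with 1.98 ± 0.25, which do not differ beyond their spread. In acute cells PARP1 stayed first at 69.7 ± 11.4 (SD, n = 3), MUS81 was at 26.9 ± 1.39, ATM at 14.3 ± 1.47 and FANCB at 0.17 ± 0.03.

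E2F factors drive many S-phase genes through short sites near their starts. The window from 250 bases before to 50 bases after the annotated start was searched on both strands for the E2F-type letters TTTCGCGC, TTTGGCGC, TTTCCCGC and TTTGCCGC, and separately for the CHR-type letters TTTGAA and TTCGAA, in the RefSeq promoter sequences (GRCh38.p14, another build than the counts). None of these motifs lies within another on either strand. The table held 33 of the 35 genes, without FANCI and RAD54B, and 10 of the 33 had several windows. An E2F-type match was in 7 of 33 repair genes (21.2%), in 6.55% of 10551 tested genes of the table and in 18 of 30 replication genes. The CHR-type letters were in 5 of 33 repair genes (15.2%: UBE2T, POLQ, FANCC, ATM and BRIP1) and in 15.95% of tested genes, so they were not more frequent here. A match is a description of letters, not a bound site. The 8 E2F-type matches are shown as the 30 bases around each, read 5′ to 3′ along the gene with the match in capitals, because these genes include the largest change (EXO1) and 1 gene that was not called (PMS2).
EXO1, chr1:241848197-241848226, plus strand: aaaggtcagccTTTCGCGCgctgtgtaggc
FANCC, chr9:95317863-95317892, minus strand: ccggggcttccGCGCGAAAccgggaacact
FANCC, chr9:95317737-95317766, minus strand: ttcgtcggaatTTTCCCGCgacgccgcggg
MSH6, chr2:47783137-47783166, plus strand: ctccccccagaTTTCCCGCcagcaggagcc
FANCD2, chr3:10026424-10026453, plus strand: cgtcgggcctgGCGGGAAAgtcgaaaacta
XRCC2, chr7:152676102-152676131, minus strand: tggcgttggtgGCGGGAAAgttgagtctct
FANCA, chr16:89816801-89816830, minus strand: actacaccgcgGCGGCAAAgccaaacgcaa
PMS2, chr7:6009131-6009160, minus strand: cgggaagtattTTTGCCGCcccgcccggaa
ATM, the gene that went against the rest, had no E2F-type match, and its CHR-type match is shown for contrast.
ATM, chr11:108223035-108223064, plus strand: agtcacgcagggTTTGAAccggaagcggga
The genes with an E2F-type match did not form 1 level of change: EXO1 and XRCC2 changed by 4.87 and 3.35 from acute to early cells, FANCC, FANCD2, FANCA and MSH6 by 1.24 to 1.57, and PMS2 by 0.08. RAD51AP1, RAD54L, FANCB and CHEK1, all above 3.5, had none of these letters in the window.

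Other DNA repair genes were taken from lists by pathway. Over all genes tested, 32.1% were higher and 33.9% lower in early than in acute cells. Of 34 other homologous recombination and end resection genes, 21 were higher in early than in acute cells and 6 were lower, with a median of 0.77. The meiotic cofactor MND1 changed by 3.23 ± 0.12. Other Fanconi and crosslink genes were higher in 10 and lower in 4 of 20, with USP1, which removes ubiquitin from FANCD2, at 2.19 ± 0.06 and the nuclease DCLRE1B at 1.98 ± 0.10. All 6 other mismatch repair genes were higher, among them HMGB1 at 1.51 ± 0.06. Other damage sensing and checkpoint genes were higher in 14 of 17 and lower in none, led by CLSPN, the adaptor between ATR and CHEK1, at 5.08 ± 0.20, with TIMELESS at 2.14 ± 0.10.

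Excision repair and end joining were taken in the same way, beside the same 32.1% of all genes higher and 33.9% lower. Of 16 end joining genes, 8 were higher and 5 lower (median 0.12), with the kinase PRKDC at 1.55 ± 0.09 and the Ku subunit XRCC5 at 1.09 ± 0.06. Base excision and single-strand break repair had 11 higher and 6 lower of 22 (median 0.21), with the glycosylases NEIL3 at 4.46 ± 0.20 and UNG at 2.81 ± 0.17. Nucleotide excision repair had 8 higher and 8 lower of 19 (median 0.02). There the damage sensor XPC was highest in acute cells, at 105 to 119.6 CPM against 31.4 to 44.5 in early libraries (-1.67 ± 0.09), while its partner RAD23B was lower there (1.28 ± 0.07). The replication list was higher in all 34 genes (median 2.62), with MCM4 at 4.09 ± 0.09 and FEN1 at 3.22 ± 0.08. E2F and MuvB regulators were higher in 14 and lower in 3 of 19, with MYBL2 at 5.69 ± 0.18 and E2F1 at 3.91 ± 0.13. The lists were not tested against each other.

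**Figure D4:**
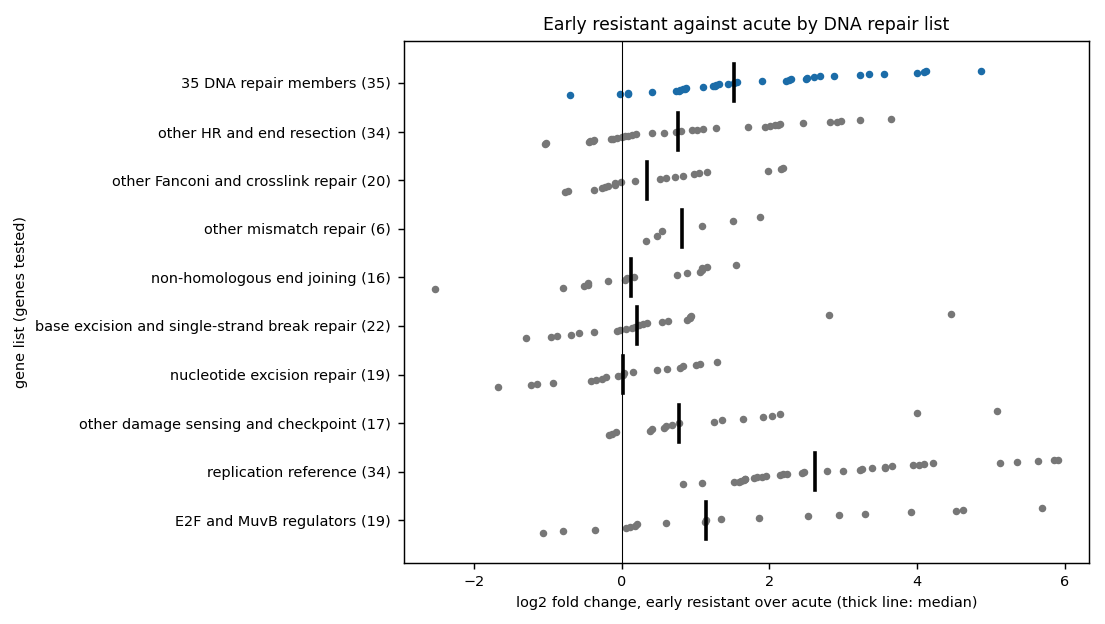
Log2 fold change of early resistant over acute cells for each tested gene (points) of the 35 repair genes and of 9 other lists, with a thick line at each median. The 35 genes have their median at 1.52, the replication genes at 2.62 and nucleotide excision repair at 0.02.

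Within the acute arm, ligands could be compared only as single libraries, with no test. Relative to drug alone, 30 of the 35 genes stayed within 1.5-fold with FGF2 and 29 with FL. Lower with FGF2 by more than that were BRIP1 (4.27-fold), POLQ (2.25-fold), FANCD2 (2.02-fold) and RAD54B (1.52-fold, at about 1 CPM). RAD51AP1 was higher (1.61-fold, at 2.27 against 1.41 CPM). With FL, EME1 (2.14-fold), POLQ (1.94-fold), FANCI (1.70-fold), BLM (1.65-fold) and FANCD2 (1.53-fold) were lower. RAD54B was higher with FL (1.53-fold, at 2.16 against 1.41 CPM), opposite to its direction with FGF2. POLQ and FANCD2 were lower with both ligands, but both ratios share the 1 library of drug alone, so they are not independent. Among 13404 genes at 1 CPM or more, 7.16% were lower and 8.13% higher past this fold with FGF2, and 6.78% and 7.58% with FL.

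Early resistant cells were then set against untreated parental cells, to ask how far their expression lay from parental levels. No gene of the 35 was called higher, against 13.7% of all genes tested, and 10 were called lower, against 16.1%. Without adjustment, 2 were higher and 15 lower at a p under 0.05, and the shares of all genes at that cut were not taken. The median was −0.19 (0.01 over all genes) and no gene changed 2-fold. The 10 lower genes were BRCA1, RAD51C, XRCC2, RAD54B, BLM, FANCF, FANCG, FANCL, UBE2T and MSH6. In the replication list, 17 of 34 were lower and 1 was higher (median −0.22). RAD54B had the largest fall, -0.71 ± 0.14 (adjusted p = 0.00259), with every early flask at 12.7 to 14.9 CPM under the parental 21.3 to 24.8. BLM was at 51.2 to 63.2 CPM in early and 77.4 to 90.96 in parental libraries (-0.54 ± 0.11, adjusted p = 0.00216). UBE2T was at 35.99 to 50.3 against 59.1 to 69.4 (-0.52 ± 0.09, adjusted p = 0.00123) and FANCL at 13.8 to 17.8 against 21.3 to 24.1 (-0.51 ± 0.10, adjusted p = 0.00199). BRCA1 was at 78.1 to 90.7 against 101 to 109 (-0.32 ± 0.06, adjusted p = 0.00206). In these 5 genes no early library reached the parental range. MSH6 changed by -0.32 ± 0.08 (adjusted p = 0.00648), with 1 FL early flask at 126 CPM above the parental range. These 6 were called lower under every alternative tried. The other 4 calls depended on the libraries and settings used: FANCF lost its call without any of 8 libraries (adjusted p 0.0566 to 0.197), XRCC2 without any of 10, all but FL early replicate 4 (0.05002 to 0.126), FANCG without FGF2 early replicate 1 or 3 or any parental library (0.0567 to 0.119), and RAD51C without parental replicate 1 (0.0523) or 2 (0.0856). With all libraries kept, XRCC2 and FANCF also lost the call with scaling to total counts, with TMM without ribosomal protein and mitochondrial genes and with no filter (0.0518 to 0.138 and 0.0580 to 0.0806), and FANCG with total counts (0.0970). The count of lower genes was 6 without parental replicate 1 and 6 without parental replicate 2. For FANCF those 8 were FGF2 early replicates 1, 3 and 4, FL early replicates 3 and 4, and the 3 parental libraries.

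The other lists were also compared between early and parental cells. Over all genes tested, 13.7% were higher and 16.1% lower in early than in parental cells. The lists were not tested against these shares. Of the other homologous recombination genes 2 were higher and 6 lower of 34, with MND1 at -0.53 ± 0.09. Other Fanconi genes had 4 higher and 2 lower of 20, with USP1 at -0.55 ± 0.05 (adjusted p = 1.34e-05). Other mismatch repair genes had 3 lower of 6, with HMGB1 at -0.38 ± 0.06, and other checkpoint genes 4 lower of 17, with the ubiquitin ligase RNF8 at -0.39 ± 0.07. End joining had 1 higher and 3 lower of 16, with SHLD2, a shieldin subunit, at -0.35 ± 0.07. Base excision repair had 3 higher and 5 lower of 22. Nucleotide excision repair had 1 higher and 4 lower of 19, with GTF2H5 at -0.42 ± 0.08. The clamp loader subunit RFC3 of the replication list was at 59.6 to 71.5 CPM in early and 95.7 to 104 in parental libraries (-0.60 ± 0.05, adjusted p = 5.20e-06). Of the E2F and MuvB regulators 6 of 19 were lower, with E2F5 at 1.10 to 1.92 CPM in FGF2 early, 2.87 to 9.65 in FL early and 7.78 to 9.46 in parental libraries.

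The 2 sets of early flasks were also each compared with the same 3 parental libraries. In FGF2 early flasks, 3 genes were higher, against 13.3% of all genes, and 8 were lower, against 17.1%. ATM was at 129, 105, 146 and 140.4 CPM against 91.3, 102 and 92.6 in parental libraries (0.45 ± 0.12, adjusted p = 0.0112), and all 4 flasks were above all 3 parental libraries. BRCA2 was at 31.2, 33.9, 31.7 and 36.96 against 26.4, 30.1 and 23.8 (0.32 ± 0.11, adjusted p = 0.0412), and FANCA at 94.4, 87.7, 96.9 and 90.98 against 80.6, 80.5 and 78.1 (0.21 ± 0.07, adjusted p = 0.0267). Again the groups did not overlap in these genes. The 8 lower genes were BRCA1, RAD51C, RAD54B, BLM, FANCF, FANCL, UBE2T and MSH6, led by RAD54B at -0.71 ± 0.17. MSH6 was at 86.9, 81.5, 83.4 and 95.2 CPM in these flasks, under every parental library (-0.48 ± 0.09, adjusted p = 0.00121). Of these 11 calls, 5 were lost in at least 1 alternative. ATM lost its call without parental replicate 1 (adjusted p = 0.0506). BRCA2 lost it without parental replicate 1 or 3 or without FGF2 early replicate 2, 3 or 4 (0.0526 to 0.168), and FANCA without any parental library or FGF2 early replicate 1 or 3 (0.0508 to 0.0834). FANCF lost it without parental replicate 2 or 3 or FGF2 early replicate 1, 3 or 4 (0.0502 to 0.115), and RAD51C without parental replicate 1 or 2 or FGF2 early replicate 4 (0.0548 to 0.0930). With all libraries kept, BRCA2 lost the call with RLE size factors (0.0531) and with no filter (0.0674), FANCA with no filter (0.0541), and RAD51C and FANCF with total counts (0.0685 and 0.0586) and with no filter (0.05004 and 0.0520). The count of higher genes was 0 without parental replicate 1 and 1 without parental replicate 3 or FGF2 early replicate 3.

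In FL early flasks no gene was higher, against 10.9% of all genes, and 12 were lower, against 9.76%. The lower genes were BRCA1, BARD1, RAD51C, XRCC2, RAD54B, EXO1, BLM, FANCG, FANCL, UBE2T, ATR and CHEK1. RAD54B was at 13.1, 14.9, 14.6 and 13.4 CPM (-0.70 ± 0.17, adjusted p = 0.0100) and BLM at 57.4, 52.2, 51.2 and 63.2 CPM (-0.59 ± 0.12, adjusted p = 0.00484), both below the whole parental range. FANCL was at 15.1, 14.7, 13.8 and 17.8 (-0.58 ± 0.11), UBE2T at 35.99, 43.5, 50.3 and 48.99 (-0.56 ± 0.11) and BRCA1 at 87.6, 84.3, 78.1 and 82.6 (-0.34 ± 0.07). BRCA1, BLM, FANCL and UBE2T kept their calls under every alternative. The other 8 did not. RAD54B (adjusted p = 0.0585) and ATR (0.0831) lost it without parental replicate 2. RAD51C (0.0544 to 0.159), BARD1 (0.0586 to 0.155), EXO1 (0.0730 to 0.133), CHEK1 (0.0603 to 0.149), FANCG (0.0504 to 0.0878) and XRCC2 (0.0507 to 0.0898) each lost it without any of 5 or 6 libraries, among them parental replicates 1 and 2 in every case. With all libraries kept, RAD51C, XRCC2 and CHEK1 lost it with total counts (0.0577, 0.0604 and 0.105) and with no filter (0.0889, 0.0542 and 0.0646), CHEK1 also with TMM without ribosomal protein and mitochondrial genes (0.0573), and RAD51C, CHEK1, EXO1 and FANCG with only the arms compared (0.0886, 0.0631, 0.104 and 0.0514). The count of lower genes was 17 with DESeq2, 4 without parental replicate 2, 6 without parental replicate 1 and 7 without FL early replicate 2.

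**Figure D5:**
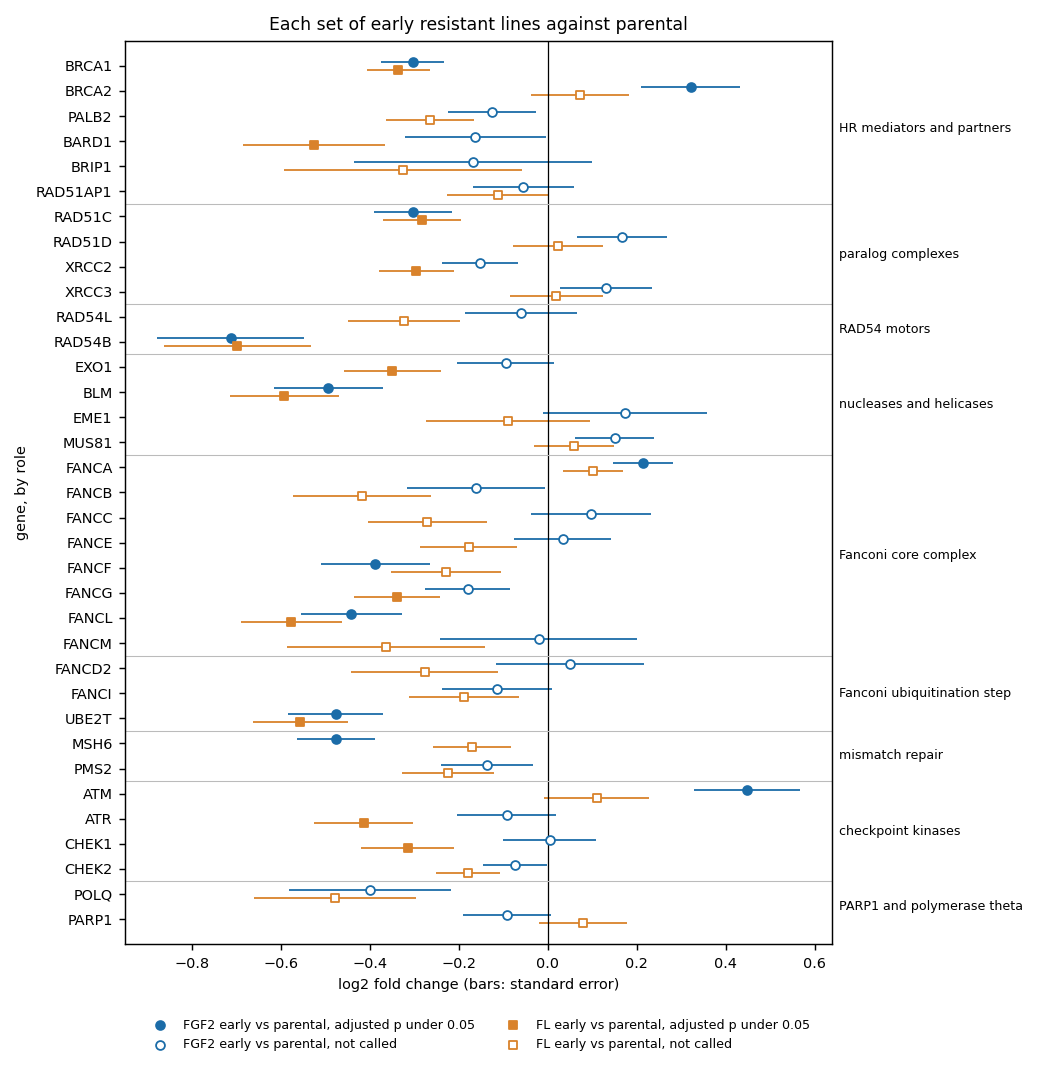
Log2 fold changes (points) and standard errors (bars) against parental cells for FGF2 early (circles) and FL early flasks (squares), with filled symbols at an adjusted p under 0.05. RAD54B lies lowest in both, and ATM, BRCA2 and FANCA are the filled circles to the right of 0.

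FGF2 early and FL early flasks were compared directly. CHEK1 was the only gene called higher with FGF2, against 4% of all genes, and MSH6 the only one called lower, against 9.56%. At an unadjusted p under 0.05, 8 were higher and 1 was lower, and 30 of the 35 differences were above 0, with a median of 0.14 (0.00 over all genes). The shares of all genes at that cut or above 0 were not taken, so these counts do not set the 35 apart. CHEK1 was at 52.1, 49.6, 55.1 and 52.7 CPM in FGF2 early and 40.1, 40.4, 38.9 and 48.5 in FL early flasks, so the groups did not overlap (0.32 ± 0.10, adjusted p = 0.0444). MSH6 was at 86.9, 81.5, 83.4 and 95.2 and 126, 98.6, 103 and 102, also without overlap (-0.31 ± 0.08, adjusted p = 0.0236). In 6 genes every FGF2 early flask was above every FL early flask, against 7.87% of all genes. ATM (0.34 ± 0.11, adjusted p = 0.0541), ATR (0.32 ± 0.10, 0.0536) and FANCC (0.37 ± 0.12, 0.0665) missed the threshold. The CHEK1 call was lost without any FGF2 early flask or without FL early replicate 1, 2 or 3 (adjusted p 0.0635 to 0.124), and the MSH6 call without FGF2 early replicate 1, 2 or 3 (0.0535 to 0.0695). With all libraries kept, CHEK1 also lost it with no filter (0.0561) and MSH6 with only the arms compared (0.0534). Myeloid markers differed between the 2 sets as well: their summed level was 931 to 1085 CPM in FGF2 early and 1800 to 2307 CPM in FL early flasks, and its part in these differences was not tested.

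FL early replicate 4 had the highest level of the 4 FL early flasks in 16 of the 35 genes, and in 27.9% of all genes tested. It was at 29.5 CPM for FANCC against 18.8 to 21.5 in the other 3 flasks, at 9.61 for FANCB against 6.43 to 6.87, at 43.1 for FANCE against 29.6 to 35.5 and at 48.5 for CHEK1 against 38.9 to 40.4. Without it, 6 genes were called higher with FGF2 (EXO1, FANCB, FANCC, FANCE, ATR and CHEK1) and MSH6 was still called lower. Without FL early replicate 1, BARD1 was called in place of CHEK1, and without FGF2 early replicate 1 or 3 no gene was called in either direction.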

How the data were processed

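RNA of 14 MOLM14 libraries was measured by stranded poly(A) sequencing. The deposited table holds expected counts (estimated counts per Ensembl gene), made by the authors with kallisto on GRCh37, per the submitters' processing notes. The kallisto version and the summing to genes are not given in the sources used here. Gene names came from the supplied name tables, which matched 84.9% of identifiers. Identifiers with no name took 4.63% to 5.53% of each library.

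Counts were rounded, filtered with filterByExpr (minimum count 10, total 15) and fitted over 4 arms together with edgeR 4.0.16 (TMM scaling, robust quasi-likelihood test, Benjamini-Hochberg adjustment over 15756 genes) in R 4.3.3. Contrasts named early use the mean of both early arms. On simulated counts, true 1.5-, 2- and 4-fold changes were recovered at 49.3%, 76.1% and 90.9% for early against acute (15473 genes, 8.28% false calls). For early against parental the shares were 55.2%, 82.1% and 93.9% (15452 genes, 5.52% false calls). The simulation changed 67, 67 and 66 genes at these folds, in the acute or the parental arm, and kept all others equal. In these data 32.1% of genes were called higher and 33.9% lower early against acute, so the simulated shares may not hold here. The alternatives were other scalings, no filter, DESeq2 1.42.0, limma-voom (limma 3.58.1), a replicate block, only the arms compared, and each library left out. The 35 genes and the other lists were chosen with earlier results of these data known. All 35 are named; values in every library are given for up to 2 genes per role with the largest change from acute to early and for genes called between ligands, and the other lists give the genes with the smallest adjusted p, except for a few that are not reported here.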

Additional observations from a re-analysis of the deposited data

Results flagged for a closer look

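Of 70 groups of 4 flasks (35 genes in each of the early sets), 6 held 1 flask far from the other 3 by Dixon's criterion, which chance alone flags in about 1 of 20 groups. In FGF2 early flasks, replicate 2 stood high for PALB2 at 37.9 CPM (the others 31.0 to 31.1) and low for EME1 at 23.8 CPM (26.5 to 26.6), and replicate 4 stood low for RAD51C at 18.3 CPM (20.1 to 20.2). In FL early flasks, replicate 1 stood high for BARD1 at 24.1 CPM (17.1 to 18.2), and replicate 4 stood high for FANCB at 9.61 CPM (6.43 to 6.87) and for CHEK1 at 48.5 CPM (38.9 to 40.4). In the direct test of FGF2 early against FL early flasks, MSH6 (−0.31) and CHEK1 (0.32) were called different. Of these 2 calls, 2 were lost when some library was left out, so neither is firm.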

How the results depend on the processing

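Early against acute, the counts of 31 higher and 1 lower gene held in every alternative, and no called gene of the 35 changed sign in any comparison. Acute against parental, 2 genes were higher with upper-quartile scaling (ATM and MUS81) in place of 1. PMS2 was called lower there with RLE size factors, with TMM without ribosomal protein and mitochondrial genes, with DESeq2, and without parental replicate 3. Early against parental, the 0 higher genes became 2 with total counts only, 2 with TMM without ribosomal protein and mitochondrial genes (FANCA and ATM in both) and 1 with only the arms compared (FANCA), and ran from 0 to 2 with 1 library left out. The 10 lower genes ran from 6 to 12 with 1 library left out. FGF2 early against parental, the 3 higher genes became 1 with no filter and ran from 0 to 2 with 1 library left out. FL early against parental, the 12 lower genes ran from 4 to 14 with 1 library left out and became 17 with DESeq2 and 15 with limma-voom. FGF2 early against FL early, the 1 higher gene became 2 with upper-quartile scaling, 4 with total counts only, 3 with TMM without ribosomal protein and mitochondrial genes, 0 with no filter, 4 with DESeq2, 3 with limma-voom and 3 with only the arms compared, and ran from 0 to 6 with 1 library left out. The 1 lower gene became 0 with only the arms compared and ran from 0 to 1. The cause of these changes was not tested. Called genes that lost the call in at least 1 alternative were 0 of 32 (early against acute), 4 of 10 (early against parental), 1 of 33 (acute against parental), 5 of 11 (FGF2 early against parental), 8 of 12 (FL early against parental) and 2 of 2 (between ligands). Depth limits FANCB, at 0.45 to 0.59 CPM in acute libraries.

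The replicate numbers did not pair the samples: same-numbered libraries of different arms had correlations of their deviations between −0.09 and 0.07. With the number as a block, 4 genes in place of 1 were higher in FGF2 early than in FL early flasks, 14 in place of 10 were lower early against parental and 16 in place of 12 were lower in FL early flasks. The block ended the calls of FANCF and FANCG early against parental, FANCF in FGF2 early and BARD1 and RAD51C in FL early flasks.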
